A study of Homo sapiens with 6 samples.

Results

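The aminoacyl-tRNA synthetases were followed in human HEK293T cells that had been transfected with a plasmid for VRTN or with its empty vector. The list holds 35 genes taken by symbol, 19 for cytosolic and 16 for mitochondrial enzymes, and it does not take in every human synthetase. All 35 were measured, on 37 of the 29183 probe sets tested, among 18417 gene symbols on the array. VARS1 and VARS2 each had 2 probe sets. Those of VARS1 held identical values, those of VARS2 differed by at most 0.021 log2 units on any array, and each gene was counted once.

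HEK293T cells derive from human embryonic kidney and make the large T antigen of SV40, and they transfect easily. One group of 3 arrays came from cells given pNTAP-2×flag-VRTN, which carries the full-length coding sequence of the pig VRTN gene, and the other group of 3 from cells given the pNTAP-2×flag empty vector. RNA of both groups was taken 24 hours after transfection. The labels call the 3 arrays of each group biological replicates and do not say whether these were separate cultures, so the p-values measure the spread between these samples. Values are log2 signals from RMA, 1 per probe set and array, and a difference of 1 is a factor of 2.

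An aminoacyl-tRNA synthetase joins an amino acid to its matching tRNA, the step that sets which amino acid a codon adds to a protein. Human cells keep separate sets for the cytosol and for the mitochondrion, whose enzymes are also encoded in the nucleus, while GARS1 and KARS1 each serve both compartments from a single gene. Several cytosolic enzymes sit together in the multisynthetase complex, held by the scaffold proteins AIMP1, AIMP2 and EEF1E1. When amino acids are short or the endoplasmic reticulum is stressed, the transcription factor ATF4 is known to raise many cytosolic synthetase genes.

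The probe set for human VRTN read 6.25, 6.22 and 6.07 on the VRTN arrays, against 5.19, 4.98 and 5.14 on the empty vector arrays. All 3 empty vector values lay below the negative control medians of their arrays, 5.36, 5.92 and 6.13. The VRTN values lay above theirs, that of array 3 only just (median 6.06). Array medians were 6.43 to 6.47, and all 35 synthetase genes lay above the negative control median of every array. Of 8 marker genes listed for HEK293T cells, 6 lay on all 6 arrays above the median of the negative controls, NEFM did so on 1 and EPCAM on 2. Their summed level was 62.8 to 63.9 on VRTN arrays and 62.0 to 62.3 on empty vector arrays. Its members moved apart, with log2 fold changes of 1.06 for KRT8, 0.56 for EPCAM and 0.14 for PAX2. KRT18, like KRT8 and EPCAM an epithelial gene, stood at 0.0095. The values were -0.22 for LIN28B, -0.19 for NEFM, -0.14 for NEFL and -0.11 for VIM. None of these passed the adjusted threshold in limma, with an adjusted p of 0.231 for KRT8. Of 14 measured markers of blood, liver, fibroblast, muscle and endothelial cells, 9 lay below that median on all 6 arrays, among them PTPRC, ALB and PECAM1, and APOA1, COL1A1, COL1A2 and DES lay above it on all 6. Their summed level was 70.1 to 70.3 on VRTN arrays and 68.5 to 71.4 on empty vector arrays. The 9 hybridisation spikes, RNAs added at the hybridisation step, averaged 10.60 ± 0.10 on VRTN arrays and 10.24 ± 0.19 on empty vector arrays (SD, n = 3 each). The 4 poly(A) spikes, added before labelling, averaged 9.73 ± 0.068 on VRTN arrays and 9.78 ± 0.12 on empty vector arrays. The part of the spike difference in the results below was not tested.

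Promoter sequence was read as a feature that the choice of genes did not use. RefSeq windows of 300 bases on GRCh38.p14, 250 before a start and 50 after it, were matched for 30 of the 35 genes (16 cytosolic, 14 mitochondrial) through 39 windows. The letters TGATGCAA, the core of the amino acid response element that ATF4 can bind, stood on either strand in windows of 6 cytosolic genes and of 0 mitochondrial genes. Counted by window, they stood in 6 of 21 cytosolic and 0 of 18 mitochondrial windows, beside 0.871% of all 34796 windows. The 30 bases around each match are given here because these 6 genes are referred to again below. The capitals mark the core, read on the strand of the gene.
AARS1 (chr16:70289675-70289704, minus strand): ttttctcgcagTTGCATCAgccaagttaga
CARS1 (chr11:3057407-3057436, minus strand): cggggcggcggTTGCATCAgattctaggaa
IARS1 (chr9:92293692-92293721, minus strand): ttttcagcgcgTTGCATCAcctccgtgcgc
MARS1 (chr12:57488053-57488082, plus strand): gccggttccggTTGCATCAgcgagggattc
NARS1 (chr18:57621804-57621833, minus strand): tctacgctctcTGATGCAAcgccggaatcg
TARS1 (chr5:33440956-33440985, plus strand): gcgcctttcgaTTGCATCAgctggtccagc

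In IARS1, CARS1, MARS1 and TARS1 the core lay within 13 bases of the start, on the strand opposite to the gene. NARS1 held it on the gene's own strand, from base 15 after the start. AARS1 held it on the strand opposite to the gene, from base -187. With any base allowed at position 6 (TGATGNAA), 7 cytosolic genes and 1 mitochondrial gene had a match. Counted by window, these were 7 of 21 and 1 of 18, against 3.63% of all windows. The added genes were GARS1, from base -33, and the mitochondrial YARS2, from base -197. The GARS1 match is printed with the core in capitals.
GARS1 (chr7:30594834-30594863, plus strand): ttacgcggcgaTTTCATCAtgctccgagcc

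The IARS1 promoter also shows how several searched motifs can lie in one stretch. In the 250 bases before its start the capitals mark, in order, an E-box, a CCAAT box in each direction, and the amino acid response core.
IARS1 (chr9:92293698-92293947, minus strand): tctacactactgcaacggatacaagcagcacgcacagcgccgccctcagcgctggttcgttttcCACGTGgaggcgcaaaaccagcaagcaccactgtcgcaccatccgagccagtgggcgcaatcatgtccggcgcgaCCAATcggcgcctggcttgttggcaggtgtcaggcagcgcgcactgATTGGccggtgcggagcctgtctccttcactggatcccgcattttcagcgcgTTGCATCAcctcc

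Other motifs were spread over both compartments. CCAAT stood in windows of 7 cytosolic and 9 mitochondrial genes (9 of 21 and 11 of 18 windows, beside 34.6% of all windows). The ETS letters CGGAAG stood in windows of 10 and 9 genes (12 of 21 and 10 of 18 windows, beside 19.4%). The E-box CACGTG stood in windows of 1 cytosolic and 3 mitochondrial genes (1 of 21 and 4 of 18 windows, beside 7.20%). The cAMP response letters TGACGTCA had 0 matches in either class and stood in 1.84% of all windows. The palindromic NRF1 motif stood in windows of 3 cytosolic and 3 mitochondrial genes (5.75% of all windows), and the antioxidant response letters TGACNNNGC in windows of 4 and 2 (13.3%). The heat shock pairs GAANNTTC and TTCNNGAA stood in windows of 2 and 0 cytosolic genes and of 1 mitochondrial gene each (6.79% and 7.76% of all windows). Each search covered both strands, and a match is a run of letters, not a measured binding site.

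HARS1 and HARS2, the cytosolic and mitochondrial histidyl-tRNA synthetases, start 84 bases apart on opposite strands, so that both windows hold the stretch between them. It is printed on the plus strand, the strand of HARS2, with the ETS letters in capitals.
HARS1 and HARS2 (chr5:140691371-140691454, plus strand): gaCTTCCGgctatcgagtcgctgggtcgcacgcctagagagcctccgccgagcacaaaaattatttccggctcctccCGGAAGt

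No synthetase gene passed an adjusted threshold of 0.05 between VRTN and empty vector cells, and the differences were small. The 19 cytosolic genes had a median log2 fold change of -0.13, VRTN over empty vector, and the 16 mitochondrial genes one of -0.029, while the median over all 29183 probe sets was -0.0049. Values were negative for 16 of 19 cytosolic and 12 of 16 mitochondrial genes, where 52.0% of all probe sets were negative. The most negative cytosolic values were those of VARS1 (-0.38) and FARSA (-0.27), and the most negative mitochondrial ones those of MARS2 and CARS2 (-0.15 each). In RNA from whole cultures, fewer cells making a transcript and less of it per cell cannot be told apart.

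By limma with Benjamini-Hochberg adjustment over all probe sets, 0 of 19 cytosolic and 0 of 16 mitochondrial genes were called, against 0.0137% of all probe sets. The lowest adjusted p was 0.604 in the cytosolic class and 0.908 in the mitochondrial class. At an unadjusted p under 0.05, 5 of 19 cytosolic genes (26.3%) and 0 of 16 mitochondrial genes were lower in VRTN cells, beside 2.92% of all probe sets, and 0 of 35 were higher, beside 2.65%. The 5 were VARS1, FARSA, EPRS1, FARSB and KARS1. With the replicate number as a block, limma called 0 of 35 (0.0274% of all probe sets), while at an unadjusted p under 0.05 the lower genes numbered 9 of 19 cytosolic and 2 of 16 mitochondrial, beside 6.19% of all probe sets, and 0 of 35 were higher, beside 5.31%. The 9 were those 5 with CARS1, LARS1, MARS1 and TARS1, and the 2 were CARS2 and MARS2. Without VRTN array 1, 2 or 3 the cytosolic count of 5 became 2, 2 and 3, beside 2.73%, 1.83% and 2.95% of all probe sets, and without VRTN array 1 the mitochondrial count of 0 became 2. A second quantile normalisation left 2 cytosolic genes, beside 2.69% of all probe sets lower and 2.87% higher. With array weights the counts were 6 cytosolic and 3 mitochondrial, beside 6.88%.

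The background was also read over the 17510 probe sets left without the dimmest 40 percent. There 55.3% had a negative log2 fold change, and at an unadjusted p under 0.05 the lower share was 3.83% and the higher share 2.77%. The counts of synthetase genes were 5 cytosolic and 0 mitochondrial lower, and 0 of 35 were higher. With the replicate block these shares were 10.8% and 7.31%, and the counts of lower genes were 10 cytosolic and 2 mitochondrial.

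**Figure D1:**
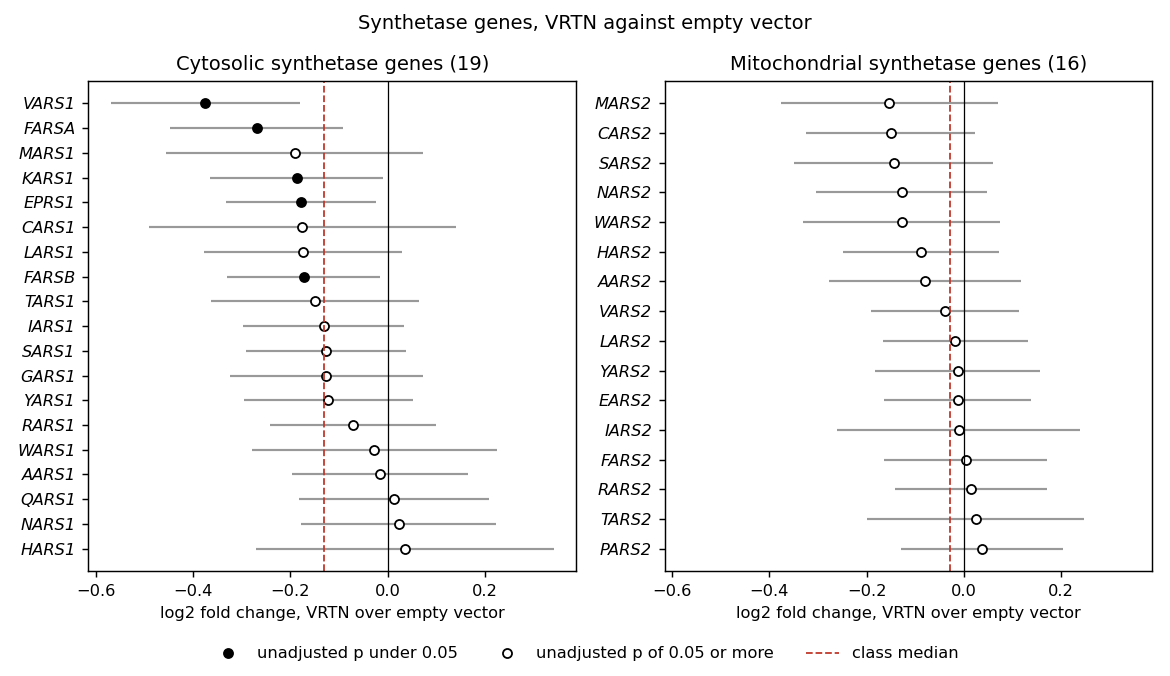
Log2 fold change (VRTN over empty vector, x axis) of each cytosolic gene on the left and each mitochondrial gene on the right, with 95% intervals from limma as bars, filled points for an unadjusted p under 0.05 and a dashed line at the class median. The 5 filled points are all cytosolic and negative, from -0.38 for VARS1 to -0.17 for FARSB, and the class medians are -0.13 and -0.029.

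Among the cytosolic enzymes outside the multisynthetase complex, VARS1, which charges tRNA with valine, read 8.83, 8.78 and 8.77 in VRTN cells, against 9.20, 9.28 and 9.02 in empty vector cells. All VRTN arrays lay below all empty vector arrays. The log2 fold change was -0.38 (SE 0.084, 95% interval -0.57 to -0.18), a change of -22.9% in signal, with a limma adjusted p of 0.604. With the replicate block the limma adjusted p was 0.250, and 0.070 when the dimmest 40 percent were also left out. VARS2, its mitochondrial counterpart, read 7.04, 7.14 and 7.12 in VRTN cells, against 7.12, 7.18 and 7.12 in empty vector cells, and these groups overlapped. It had the lowest mean signal of the list, and its log2 fold change was -0.039 (SE 0.066), or -0.010 without VRTN array 1 and -0.020 without empty vector array 2.

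FARSA and FARSB encode the alpha and beta subunits of the cytosolic phenylalanyl-tRNA synthetase. FARSA read 10.16, 10.13 and 10.07 in VRTN cells, against 10.49, 10.39 and 10.28 in empty vector cells. FARSB read 9.96, 10.05 and 10.06 in VRTN cells, against 10.15, 10.24 and 10.19 in empty vector cells. For both subunits the 3 VRTN arrays lay below the 3 empty vector arrays. The log2 fold change was -0.27 (SE 0.077) for FARSA and -0.17 (SE 0.068) for FARSB, with limma adjusted p of 0.720 and 0.853. FARS2, the mitochondrial phenylalanyl enzyme, which works as a single chain, was at 0.0036 (SE 0.072) on the same scale.

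The multisynthetase complex holds 7 of the listed enzymes. Their median log2 fold change was -0.17, with 6 of 7 negative and 2 of 7 lower at an unadjusted p under 0.05. The 12 cytosolic genes outside it had a median of -0.13, with 3 of 12 lower at that p. Over all probe sets 52.0% were negative and 2.92% were lower at that p, and no test compared the subsets. EPRS1, a single protein that charges both glutamate and proline, read 10.15, 10.21 and 10.25 in VRTN cells, against 10.43, 10.35 and 10.36 in empty vector cells. Its groups did not overlap, and the log2 fold change was -0.18 (SE 0.066, limma adjusted p = 0.853). KARS1, the lysyl enzyme of cytosol and mitochondrion, read 9.86, 9.74 and 9.86 in VRTN cells, against 10.10, 9.91 and 10.01 in empty vector cells. Here too the groups did not overlap, and the log2 fold change was -0.19 (SE 0.077, limma adjusted p = 0.873).

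MARS1, the methionyl enzyme of the complex, read 10.28, 10.20 and 9.94 in VRTN cells, against 10.39, 10.45 and 10.16 in empty vector cells. The groups overlapped, with array 3 the lowest under both plasmids. MARS1 had a log2 fold change of -0.19 (SE 0.11), or -0.093 without VRTN array 3. QARS1, the glutaminyl enzyme, was the 1 member of the complex with a positive value, 0.013 (SE 0.084), and it ran from -0.051 to 0.087 over 19 settings, negative in 4. The scaffold gene AIMP1 had a log2 fold change of -0.036. AIMP2 and EEF1E1 had no probe set with their symbol alone and are not analysed here.

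GARS1, the glycyl enzyme of both compartments, had the highest mean signal of the list. It read 11.39, 11.44 and 11.31 in VRTN cells, against 11.45, 11.65 and 11.42 in empty vector cells, and the groups overlapped. The log2 fold change was -0.13 (SE 0.086, limma adjusted p = 0.947), or -0.052 without empty vector array 2. WARS1, the tryptophanyl enzyme, is known as an interferon-inducible gene. It read 9.39, 9.20 and 9.03 in VRTN cells, against 9.31, 9.30 and 9.09 in empty vector cells, with a log2 fold change of -0.027 (SE 0.11). The groups overlapped, and the sign turned with a second quantile normalisation (0.0034) and without VRTN array 3, empty vector array 1 or empty vector array 2.

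CARS1 and HARS1, the cytosolic cysteinyl and histidyl enzymes, had the highest SEs of the list. CARS1 read 8.95, 9.06 and 8.61 in VRTN cells, against 9.07, 9.21 and 8.86 in empty vector cells. HARS1 read 9.54, 9.32 and 9.12 in VRTN cells, against 9.50, 9.24 and 9.14 in empty vector cells. In both genes the groups overlapped. The log2 fold change was -0.18 (SE 0.14) for CARS1 and 0.036 (SE 0.13) for HARS1, and that of HARS1 turned negative without VRTN array 1 or empty vector array 3. That of CARS1 was -0.044 without VRTN array 3, -0.092 without empty vector array 2, and -0.27 without VRTN array 2 or without empty vector array 3. The other 9 cytosolic genes, AARS1, IARS1, LARS1, NARS1, QARS1, RARS1, SARS1, TARS1 and YARS1, ran from -0.17 to 0.023, with 7 negative and a lowest limma adjusted p of 0.910.

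**Figure D2:**
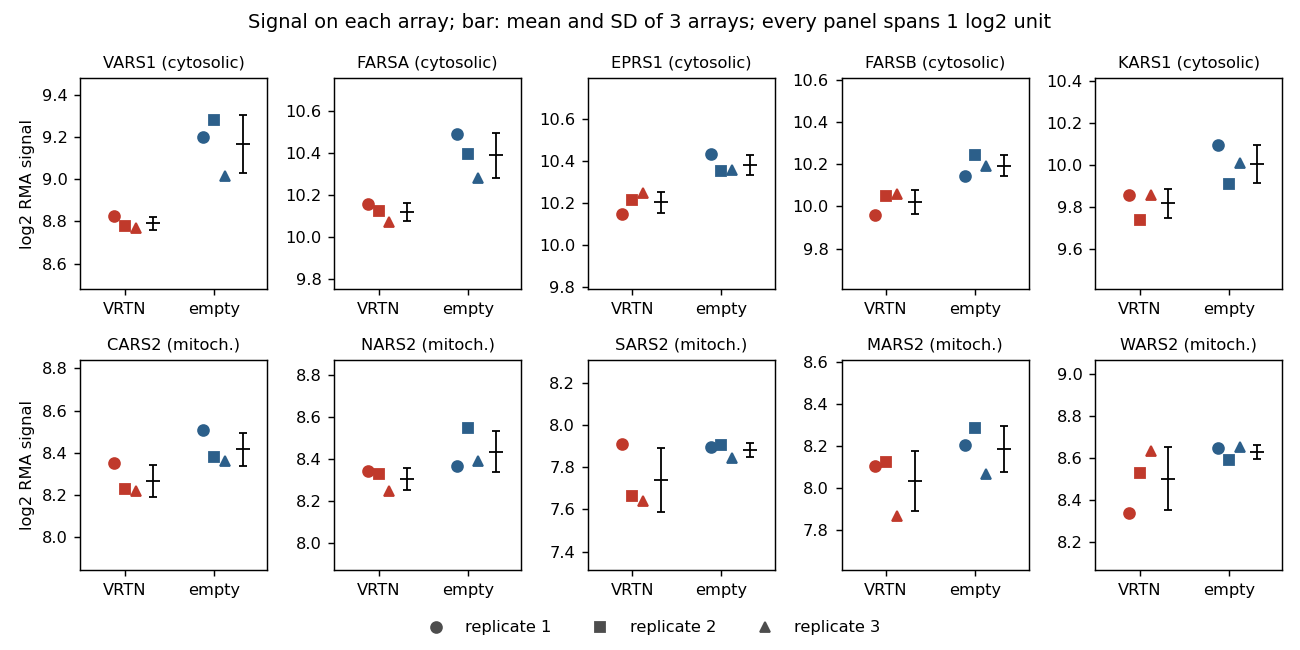
Log2 RMA signal (y axis) on each VRTN array (left in each panel) and each empty vector array (right) for the 5 cytosolic (top) and 5 mitochondrial (bottom) genes with the smallest p, with symbols for replicate numbers and bars for the mean and SD of 3 arrays. The groups do not overlap for the 5 cytosolic genes, CARS2 and NARS2, and they overlap for SARS2, MARS2 and WARS2.

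In the mitochondrial class, CARS2, the cysteinyl enzyme, read 8.35, 8.23 and 8.22 in VRTN cells, against 8.51, 8.38 and 8.36 in empty vector cells. All VRTN arrays lay below all empty vector arrays, by a narrow margin. The log2 fold change was -0.15 (SE 0.075, limma adjusted p = 0.908). NARS2, the asparaginyl enzyme, read 8.34, 8.33 and 8.25 in VRTN cells, against 8.37, 8.55 and 8.39 in empty vector cells, again without overlap. Its log2 fold change was -0.13 (SE 0.076, limma adjusted p = 0.929), or -0.072 without empty vector array 2.

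MARS2, the methionyl enzyme, read 8.10, 8.13 and 7.87 in VRTN cells, against 8.21, 8.29 and 8.07 in empty vector cells. SARS2, the seryl enzyme, read 7.91, 7.66 and 7.64 in VRTN cells, against 7.89, 7.91 and 7.85 in empty vector cells. In both the groups overlapped, and in SARS2 VRTN array 1 stood with the empty vector arrays. MARS2 had a log2 fold change of -0.15 (SE 0.096), or -0.071 without VRTN array 3. That of SARS2 was -0.14 (SE 0.088), or -0.23 without VRTN array 1 and -0.094 without VRTN array 3. WARS2, the tryptophanyl enzyme, read 8.34, 8.53 and 8.64 in VRTN cells, against 8.65, 8.59 and 8.65 in empty vector cells, with VRTN array 1 the lowest. Its log2 fold change was -0.13 (SE 0.087), or -0.047 without VRTN array 1 and -0.19 without VRTN array 3.

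IARS2, the isoleucyl enzyme, read 9.12, 9.40 and 9.42 in VRTN cells, against 9.23, 9.26 and 9.48 in empty vector cells. TARS2, the threonyl enzyme, read 9.04, 8.93 and 8.87 in VRTN cells, against 9.10, 8.88 and 8.79 in empty vector cells. Both overlapped, with log2 fold changes of -0.011 (SE 0.11) and 0.024 (SE 0.096), and both turned sign under some alternatives, among them leaving out VRTN array 1. The other 8 mitochondrial genes, AARS2, EARS2, FARS2, HARS2, LARS2, PARS2, RARS2 and YARS2, ran from -0.089 to 0.037, with 5 negative and a lowest limma adjusted p of 0.969.

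The difference between the class medians, cytosolic minus mitochondrial, was -0.10, and it carries no test because genes of one class are not replicates. It was -0.056 without VRTN array 3 or without empty vector array 2. The classes also differed in signal. The median percentile of mean signal among all probe sets was 95.9 for cytosolic and 76.7 for mitochondrial genes. Single array values ran from 8.61 to 11.65 in the cytosolic and from 7.04 to 9.48 in the mitochondrial class. The part of signal level in the difference between the classes was not tested. For 15 cytosolic genes whose amino acid is also served by a listed mitochondrial enzyme, with FARSA and FARSB both set against FARS2, the cytosolic gene was the more negative in 10 and the mitochondrial gene in 5, with a median difference of -0.086. The difference was widest for VARS1 and VARS2, at -0.34, and on the other side for NARS1 and NARS2, at 0.15. The mitochondrial median of -0.029 became -0.055 without VRTN array 2, -0.053 without empty vector array 1 and -0.046 without empty vector array 3.

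Within same-numbered arrays, the cytosolic median of VRTN minus empty vector was -0.12, -0.17 and -0.11 for numbers 1, 2 and 3, and the mitochondrial median was -0.061, -0.022 and -0.047. The medians over all probe sets were -0.015, -0.014 and 0.0094. Of the cytosolic genes, 13 of 19 (68.4%) were lower with VRTN in all 3 pairs, as were 6 of 16 mitochondrial genes (37.5%) and 19.1% of all probe sets. In the other direction 0 of 35 were higher in all 3 pairs, beside 15.8%. The 3 VRTN arrays lay wholly below the 3 empty vector arrays for 8 cytosolic and 3 mitochondrial genes, beside 5.92% of all probe sets, and wholly above for 0 of 35, beside 5.39%. The 8 were VARS1, FARSA, EPRS1, FARSB, KARS1, IARS1, SARS1 and YARS1, and the 3 were CARS2, NARS2 and HARS2.

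**Figure D3:**
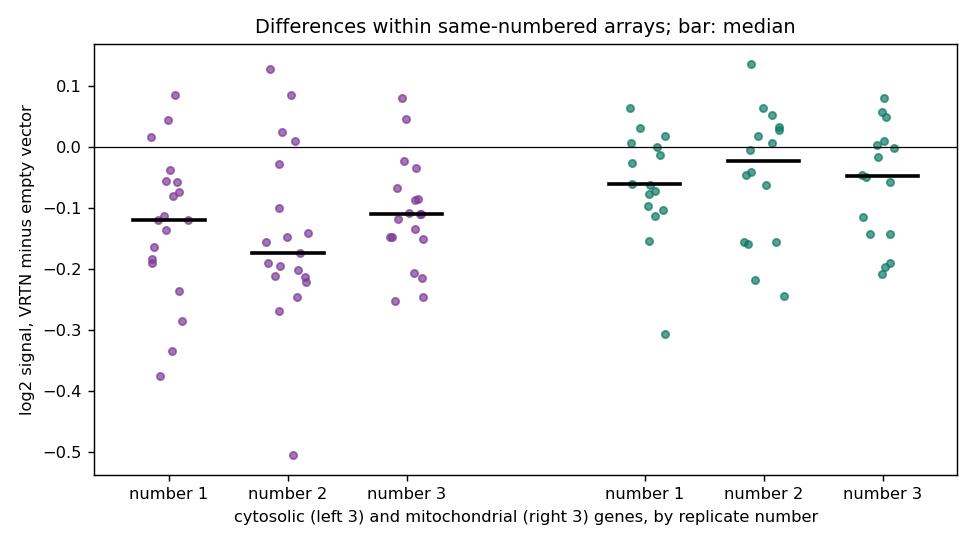
Log2 signal of VRTN minus empty vector (y axis) within each replicate number, 1 point per gene, for the 19 cytosolic genes in the left 3 columns and the 16 mitochondrial genes in the right 3, with bars at the medians. The cytosolic medians are -0.12, -0.17 and -0.11 and the mitochondrial ones -0.061, -0.022 and -0.047.

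Set against the mean of each gene over the 6 arrays, 13, 13 and 18 of the 19 cytosolic genes lay below their own mean on VRTN arrays 1, 2 and 3, and 1, 3 and 10 did so on empty vector arrays 1, 2 and 3. Empty vector array 3 was thus nearer to the VRTN arrays than the other two were. In the mitochondrial class 9, 8 and 13 of 16 genes lay below their own mean on the VRTN arrays, and 5, 5 and 8 on the empty vector arrays.

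**Figure D4:**
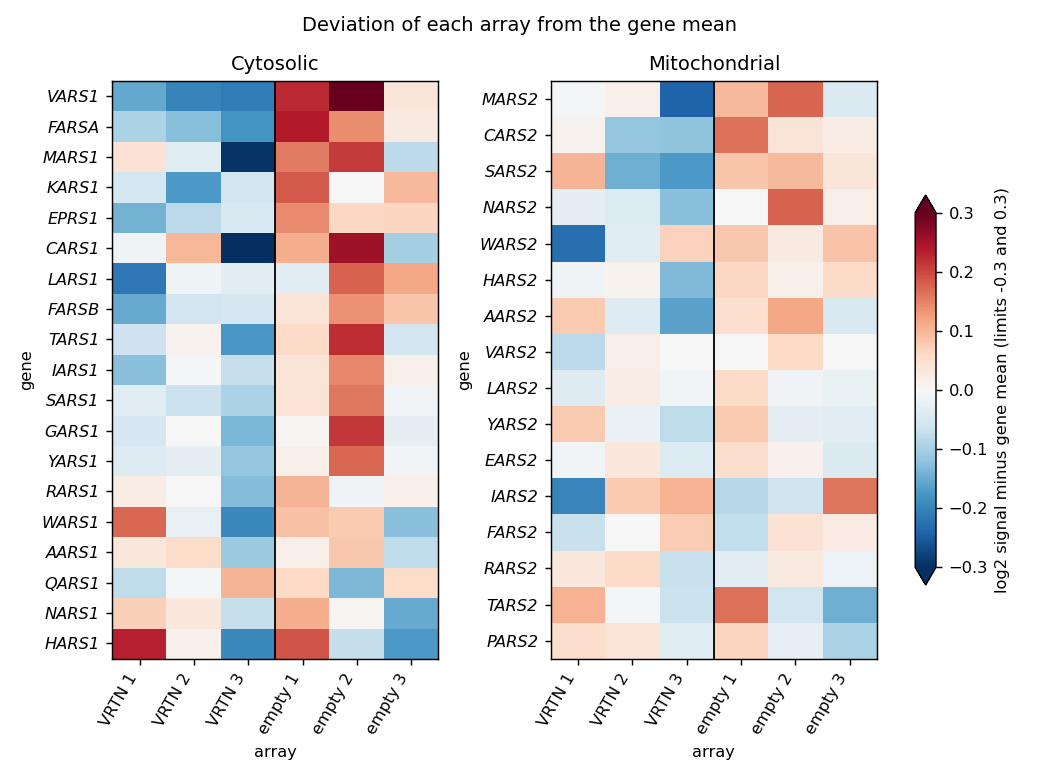
Log2 signal of each array minus the mean of the gene over 6 arrays (colour, limits -0.3 and 0.3), with genes as rows in order of fold change and arrays as columns, VRTN left of empty vector. On VRTN array 3, 18 of 19 cytosolic genes lie below their own mean, against 1 of 19 on empty vector array 1.

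By catalytic fold, the 19 class I enzymes had a median log2 fold change of -0.12 and the 16 class II enzymes one of -0.11. EPRS1, which holds a class I and a class II enzyme, was counted in class I. The 12 synthetase genes listed as ATF4-responsive had a median of -0.13, with 1 of 12 at an unadjusted p under 0.05, and the other 7 cytosolic genes had a median of -0.17, with 4 of 7. Among the 16 cytosolic genes with a promoter window, the 6 that hold the TGATGCAA core printed above had a median of -0.14, with 0 of 6 at an unadjusted p under 0.05. The 10 without it had a median of -0.13, with 4 of 10. All genes counted at that p were lower, beside 2.92% of all probe sets, and no test compared these subsets.

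The deviations of same-numbered arrays of the 2 plasmids correlated at 0.535, 0.157 and 0.499 for numbers 1, 2 and 3, so only weakly for number 2. Each passed the cut of 0.1 set for pairing, and differences between replicate numbers were also measured, with the plasmid in the model. By the limma F test 0 of 35 synthetase genes passed the adjusted threshold, beside 1.03% of all probe sets. At an unadjusted p under 0.05, 6 of 19 cytosolic genes (31.6%) and 2 of 16 mitochondrial genes (12.5%) differed, beside 20.9% of all probe sets. CARS1 and HARS1 had the lowest adjusted p, both 0.090, and MARS1 followed at 0.137. With a trended and robust prior, CARS1, HARS1, LARS1, MARS1, TARS1 and WARS1 were called, beside 11.6% of all probe sets, and without the dimmest 40 percent CARS1, HARS1 and MARS1, beside 14.3%. The unadjusted cytosolic count of 6 became 3 without VRTN array 1, 2 without VRTN array 3 and 2 without empty vector array 3. The mitochondrial count of 2 became 1 or 0 without any single array. The unadjusted shares of all probe sets in these fits are not given here, so these counts have no like background. The adjusted share of all probe sets, 1.03% in the reported fit, also fell. It was 0% without VRTN array 1, 0.726% without VRTN array 3 and 0.685% without empty vector array 3.

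HARS1 differed between numbers 3 and 1 by -0.39 (SE 0.070) and CARS1 by -0.27 (SE 0.072), and CARS1 differed between numbers 3 and 2 by -0.40. MARS1 and WARS1 differed between numbers 3 and 1 by -0.28 and -0.29. HARS2, whose start lies 84 bases from that of HARS1, differed by -0.064 (SE 0.077). In the mitochondrial class the values were -0.24 for TARS2, -0.19 for MARS2 and 0.27 for IARS2. The class medians of number 3 minus number 1 were -0.11 for cytosolic genes, with 14 of 19 lower, and -0.064 for mitochondrial genes, with 12 of 16 lower, beside -0.027 over all probe sets. Without empty vector array 3 they were -0.046 and -0.099. The 6 genes with the TGATGCAA core had a median of -0.16 and the 10 without it one of -0.058. By the ATF4 list the order was the other way. The 12 genes listed as ATF4-responsive had a median of -0.086 and the other 7 cytosolic genes one of -0.12.

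**Figure D5:**
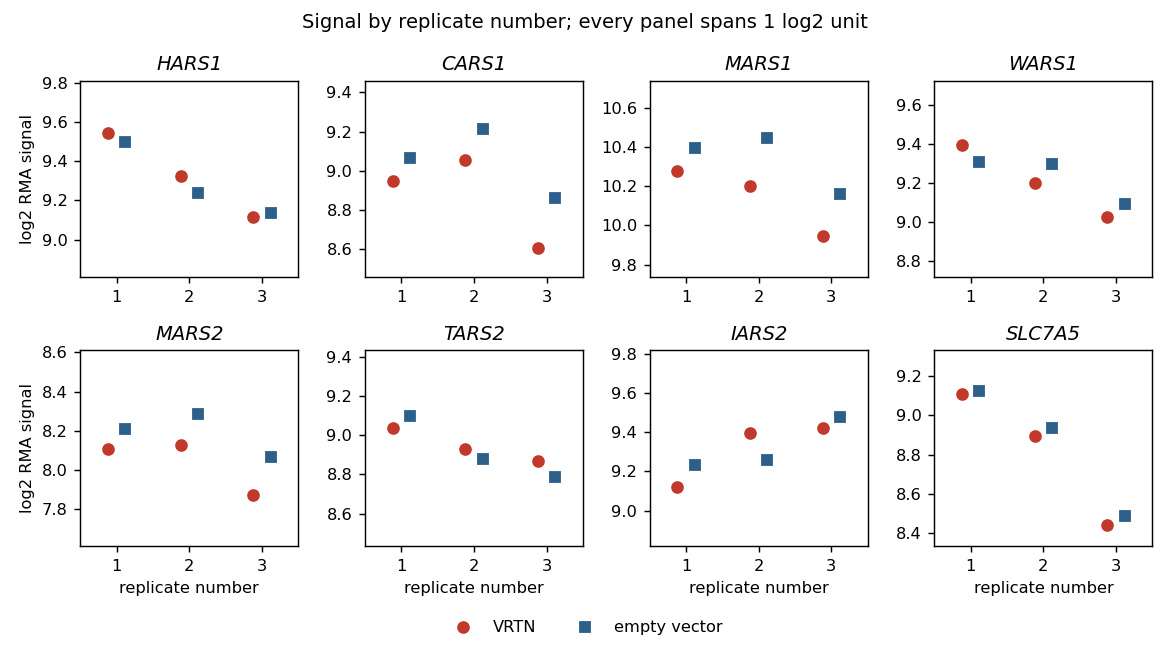
Log2 RMA signal (y axis) by replicate number (x axis) for 7 synthetase genes and the amino acid transporter gene SLC7A5, with VRTN as circles and empty vector as squares, each panel spanning 1 log2 unit. HARS1 reads 9.54 and 9.50 on the arrays numbered 1 and 9.12 and 9.14 on those numbered 3, VRTN and then empty vector.

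The other genes of the amino acid response were read from a list of 17. By limma 0 of 17 were called between VRTN and empty vector cells, beside 0.0137% of all probe sets. At an unadjusted p under 0.05 there was 1 lower, beside 2.92%, and 1 higher, beside 2.65%. With the replicate block there were 3 lower, beside 6.19%, and 1 higher, beside 5.31%. SLC7A11, the cystine transporter subunit, read 7.55, 7.77 and 6.99 in VRTN cells, against 7.95, 8.58 and 7.69 in empty vector cells, with a log2 fold change of -0.64 (SE 0.26, limma adjusted p = 0.867). Its groups overlapped. DDIT3, the stress transcription factor CHOP, read 7.41, 7.25 and 7.35 in VRTN cells, against 6.82, 7.13 and 7.05 in empty vector cells, with a log2 fold change of 0.34 (SE 0.097, limma adjusted p = 0.741) and no overlap. ATF4 itself had a log2 fold change of -0.045, asparagine synthetase (ASNS) -0.18 and the transcription factor CEBPB 0.074.

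Between replicate numbers 2 of these 17 genes passed the adjusted threshold of the limma F test, beside 1.03% of all probe sets. They were SLC7A5, a transporter of large neutral amino acids, at -0.65 for number 3 minus number 1 (adjusted p = 0.037), and DDIT4, an inhibitor of mTORC1 signalling, at 0.99 (adjusted p = 0.032). Both were named after their values were seen. Neither passed without VRTN array 1 (adjusted p = 0.118 for SLC7A5 and 0.135 for DDIT4), without empty vector array 1 (0.165 and 0.187) or without moderation, and in each of these fits limma called 0 of 29183 probe sets. SLC7A5 also missed the threshold without VRTN array 3 (0.097) and without empty vector array 3 (0.091).

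In the list for cytosolic tRNA supply, editing and delivery, 25 of 27 genes were measured and limma called 0, beside 0.0137% of all probe sets. At an unadjusted p under 0.05, 3 were lower, beside 2.92%, and 0 higher, beside 2.65%. With the replicate block 6 were lower, beside 6.19%. SEPSECS, which makes selenocysteine on its tRNA, read 6.67, 6.80 and 6.94 in VRTN cells, against 7.11, 7.24 and 7.27 in empty vector cells. The groups did not overlap, and the log2 fold change was -0.40 (SE 0.090, limma adjusted p = 0.604). The log2 fold change of TRNT1, which adds the CCA end of tRNAs, was -0.26 (SE 0.083), and on the higher side ELP3 stood at 0.056 and ADAT3 at 0.029, both subunits of enzymes that modify tRNA at the wobble base.

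In the list of mitochondrial charging partners, 22 of 23 genes were measured and limma called 0, beside 0.0137% of all probe sets. At an unadjusted p under 0.05, 2 were lower, beside 2.92%, and 0 higher, beside 2.65%. With the replicate block 3 were lower, beside 6.19%. The 2 lower without the block were MTIF2, a mitochondrial initiation factor, at -0.16 (SE 0.062) and TRIT1, which modifies tRNAs of both compartments, at -0.22 (SE 0.093). The positive values with the smallest p were those of MTRF1, a release factor, at 0.062 and MTIF3, an initiation factor, at 0.047.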

How the data were processed

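The deposited values are on the log2 scale, made by the authors with RMA, per the file headers. The submitters' processing notes list Affymetrix Expression Console 1.0. Because RMA equalises the arrays' distributions, a change common to most transcripts is not visible. Per the labels' protocols, 500 ng of total RNA was used. The genome build of the array files is not given in the sources used here. A second deposited table held the same values, with 0 of 33297 probe sets differing. The 4114 control probe sets were left out. Of the 29183 tested, 19460 carried 1 symbol, 1752 several and 7971 none, and genes were named from single-symbol probe sets alone, by the one with the highest mean. The number of arrays, 3 per group, limits the precision.

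The plasmids were compared by limma 3.58.1 under R 4.3.3 (lmFit and eBayes, two-sided, Benjamini-Hochberg over the tested probe sets, threshold 0.05), checked on simulated data. Python 3.11.15, pandas 2.3.3 and matplotlib 3.10.9 did the rest. Same-numbered arrays correlated in their deviations from the group means at 0.535, 0.157 and 0.499 across probe sets. All were over the cut of 0.1, which was taken as pairing.

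The members, the gene lists and the motifs were chosen with earlier results of these data known. Values on every array are given for the 5 genes of each class with the smallest p for the plasmid, the 3 of each class with the smallest p between replicate numbers, the brightest and the dimmest gene, GARS1, KARS1 and WARS1, and of each related list up to 2 genes in each direction are named. Alternatives were the second table, quantile normalisation, median centring, removal of the dimmest 40 percent, 2 other priors, array weights, averaged probe sets, the replicate block and leaving out arrays. Chosen after seeing the data were the removal of both arrays of a number and the block combined with 2 of these settings.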

Additional observations from a re-analysis of the deposited data

How the results depend on the processing

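No synthetase gene was called for the plasmid under any alternative run, and the lowest limma adjusted p was 0.070, for VARS1 with the replicate block without the dimmest 40 percent, where the lowest mitochondrial value was 0.185, for CARS2. Of the cytosolic genes 14 of 19, and of the mitochondrial genes 8 of 16, had a negative log2 fold change under all 19 settings compared. The number of cytosolic genes lower at an unadjusted p under 0.05 was 5 in the reported fit, beside 2.92% of all probe sets. It was 2 after a second quantile normalisation (2.69%), 9 with the replicate block (6.19%) and 10 with that block without the dimmest 40 percent (10.8%). With arrays left out it was 1 to 4, beside 0.956% to 3.51% of all probe sets. The mitochondrial number, 0, was 3 with array weights, where 6.88% of all probe sets were lower. It was 2 with the replicate block and 2 with that block without the dimmest 40 percent. With arrays left out it was 0 to 2, beside the same 0.956% to 3.51%. The replicate block left the class medians at -0.13 and -0.029. With arrays left out the cytosolic median ran from -0.16 to -0.092, the mitochondrial median from -0.055 to -0.020 (-0.035 without VRTN array 1) and their difference from -0.13 to -0.056.

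Between replicate numbers, the adjusted cytosolic count of 0 was 3 without the dimmest 40 percent, beside 14.3% of all probe sets. It was 6 with a trended and robust prior, beside 11.6%. The unadjusted cytosolic count of 6 was 11 with that prior and 2 to 5 with arrays left out. The unadjusted mitochondrial count of 2 was 1 after quantile normalisation, 1 with array weights and 0 to 2 with arrays left out. The unadjusted shares of all probe sets between replicate numbers under these alternatives are not given here. The cytosolic median of number 3 minus number 1 was -0.12 after quantile normalisation and -0.11 after median centring, and ran from -0.11 to -0.046 with arrays left out, where the mitochondrial one ran from -0.099 to -0.060. The count of 2 amino acid response genes was 7 without the dimmest 40 percent, beside 14.3% of all probe sets. It was 9 with the trended and robust prior, beside 11.6%, and 0 without moderation, beside 0%. With arrays left out it was 0 to 5, beside 0% to 5.25%. The 5.25% is the share without number 2 in both groups, and removing both arrays of a number was chosen after seeing the data.

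Signs turned under at least 1 setting for 5 cytosolic and 8 mitochondrial genes, whose reported values lay between -0.027 and 0.037. They were AARS1, HARS1, NARS1, QARS1, WARS1, EARS2, FARS2, IARS2, LARS2, PARS2, RARS2, TARS2 and YARS2. Of those with values on every array, IARS2 (-0.011) was 0.022 after quantile normalisation and 0.056 with array weights, and with arrays left out it ran from -0.084 to 0.086, with -0.066 without VRTN array 3 and 0.040 and 0.012 without numbers 1 and 3 in both groups. WARS1 (-0.027) was 0.0034 after quantile normalisation and ran from -0.12 to 0.062 with arrays left out, with 0.0091 without number 2 in both groups. HARS1 (0.036) ran from -0.072 to 0.14 and TARS2 (0.024) from -0.043 to 0.11, and TARS2 was -0.0046 without number 3 in both groups. With 3 arrays a group, differences near the SEs given here (0.064 to 0.14 in the fit without the block) were not resolved.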
